A study of Mus musculus with 9 samples.

Results

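Nes, Xirp1, Scnn1g, Setbp1, Adrb1 and Ccdc192 are 6 of the 55487 genes counted in sorted mouse splenic monocytes. They were chosen by symbol because their level was high in Ly6Clo monocytes of wild-type (WT) mice and near 0 in Ly6Chi monocytes of WT mice, so that difference is described here and not tested. The name "switched on" fits Scnn1g by its counts, with 0 reads in all 3 WT Ly6Chi libraries, while Setbp1, Adrb1, Ccdc192 and Nes kept 40, 254, 17 and 12 reads there in all. The choice was not stated to rest on a difference between mutant and WT Ly6Clo monocytes, and that comparison is tested below. The threshold of the choice is not known, the same WT Ly6Clo libraries entered it, and earlier results of these data were known. The test below is thus not shown to be independent of the choice.

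The series has 3 groups of 3 RNA-seq libraries from spleens of C57BL/6 mice, each from 40000 to 50000 sorted and untreated monocytes. The first group is Ly6Clo monocytes of Cebpa +37-/- mice, called KO here, homozygous for loss of the +37 element of Cebpa. The second is Ly6Clo monocytes of WT mice and the third Ly6Chi monocytes of WT mice; Ly6Chi monocytes of KO mice were not analysed here. Age is not given, and nothing in the labels ties replicates to separate mice, so the p-values reflect spread among the libraries, part of which may be technical.

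Ly6Chi monocytes are the classical, inflammatory subset that leaves the bone marrow and enters tissue. Ly6Clo monocytes are the nonclassical subset that patrols the inner wall of blood vessels, arises largely from Ly6Chi cells and depends on the nuclear receptor Nr4a1. The 6 genes have no known common pathway, and Nes, Xirp1 and Scnn1g are best known from other tissues. Nes encodes nestin, an intermediate filament protein of neural progenitors and of vessel walls. Xirp1 encodes an actin-binding protein with Xin repeats, found at cell junctions of heart and skeletal muscle. Scnn1g encodes the gamma subunit of the epithelial sodium channel of kidney and lung, which normally works together with the alpha and beta subunits. Adrb1 encodes the beta-1 adrenergic receptor, which binds noradrenaline and adrenaline and raises cyclic AMP through a G protein. Setbp1 encodes a DNA-binding protein that binds the SET oncoprotein, an inhibitor of protein phosphatase 2A. Ccdc192 encodes a coiled-coil domain protein.

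The libraries held 48.1 to 173.7 in units of 1000000 counts, so 3 counts equal 0.0199 to 0.0626 CPM (counts per 1000000) on library sizes scaled by TMM, the unit of all levels below unless TPM is named. Cebpa itself averaged 3.22 ± 0.709 CPM in KO Ly6Clo, 18.3 ± 0.768 CPM in WT Ly6Clo and 44.8 ± 11.5 CPM in WT Ly6Chi libraries (SD, n = 3 each). It was lower in KO than in WT Ly6Clo libraries, with a log2 fold change of -2.51 (SE 0.27) and an adjusted p of 0.015 by edgeR's quasi-likelihood test. That call was kept under 9 of 17 other settings. The adjusted p was 0.056 with the replicate number as a block and 0.13 with the 2 Ly6Clo groups alone. Without 1 library it was 0.055 (WT Ly6Chi replicate 3), 0.073, 0.07 and 0.079 (WT Ly6Clo replicates 1, 2 and 3) and 0.075 and 0.064 (KO replicates 2 and 3). The sorted subsets matched their names: 8 Ly6Chi monocyte genes summed to 134 to 225 CPM in KO Ly6Clo, 233 to 275 CPM in WT Ly6Clo and 8220 to 11100 CPM in WT Ly6Chi libraries. WT Ly6Chi replicate 3 stood apart by its sex-linked genes, with Xist at 30.0 CPM and Ddx3y and Eif2s3y at 0, against at most 0.0417 CPM of Xist and at least 51.8 CPM of each Y-linked gene in the other 8 libraries. Values without that library are given where results rest on it.

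Promoter sequence was at hand for 3 of the 6 genes, and it is shown because these genes share their expression pattern. The stretches run from 250 bases before to 50 bases after the annotated start in RefSeq (GRCm38.p6), all on the plus strand. Capitals mark matches on either strand to CCNCNCCC, a core bound by Krüppel-like factors such as Klf2 and Klf4. Overlapping matches run together. Nes lies at chr3:87970843-87971142, Scnn1g at chr7:121734229-121734528 and Adrb1 at chr19:56721867-56722166.
Nes promoter: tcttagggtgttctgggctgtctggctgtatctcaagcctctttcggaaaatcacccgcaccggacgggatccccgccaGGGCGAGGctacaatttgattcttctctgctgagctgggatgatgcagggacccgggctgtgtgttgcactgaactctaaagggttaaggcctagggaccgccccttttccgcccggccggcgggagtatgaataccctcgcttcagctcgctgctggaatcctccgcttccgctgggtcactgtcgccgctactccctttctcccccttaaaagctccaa
Scnn1g promoter: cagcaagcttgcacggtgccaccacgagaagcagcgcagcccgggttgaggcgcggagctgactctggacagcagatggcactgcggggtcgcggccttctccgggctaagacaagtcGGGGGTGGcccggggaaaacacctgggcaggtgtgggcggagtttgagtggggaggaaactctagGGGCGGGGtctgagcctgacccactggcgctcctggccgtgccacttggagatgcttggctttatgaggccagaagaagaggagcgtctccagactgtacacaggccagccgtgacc
Adrb1 promoter: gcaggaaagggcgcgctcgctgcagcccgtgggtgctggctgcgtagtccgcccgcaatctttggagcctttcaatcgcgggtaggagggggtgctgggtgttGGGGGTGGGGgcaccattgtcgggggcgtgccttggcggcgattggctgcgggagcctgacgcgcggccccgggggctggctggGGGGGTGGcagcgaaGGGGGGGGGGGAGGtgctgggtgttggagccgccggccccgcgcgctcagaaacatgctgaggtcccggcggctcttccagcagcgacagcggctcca
The Krüppel-like core occurred 1 time in the Nes window, 2 times in the Scnn1g window and 8 times in the Adrb1 window, counting overlaps, and 49.5% of 32851 mouse promoter windows hold at least 1. None of the 3 windows held AAAGGTCA, the NBRE to which Nr4a1 binds (in 1.51% of all windows), TTGCNNAA of C/EBP factors (10.8%) or GAGGAAGT of PU.1 (3.2%), searched on both strands. The windows held 18, 18 and 28 CG dinucleotides in Nes, Scnn1g and Adrb1, against a median of 7 over all windows; 29.7% of all windows hold at least 18 and 14.2% at least 28. A GC content of 58.7%, 64.7% and 72.3% in Nes, Scnn1g and Adrb1 compares with a median of 52.7%.

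Nes (ENSMUSG00000004891, GRCm38 chromosome 3, 87971078 to 87980451, plus strand) had 2.34, 19.3 and 16.2 CPM in KO Ly6Clo replicates 1 to 3, 6.01, 7.64 and 14.1 CPM in WT Ly6Clo, against 0.143, 0.0626 and 0.0204 CPM in WT Ly6Chi replicates. The Ly6Clo libraries lay far above those of Ly6Chi monocytes, and the KO range enclosed the WT Ly6Clo range. Its mean was 168-fold (KO) and 123-fold (WT) that of the Ly6Chi libraries, and these folds, in the same order, were 304 and 223 without WT Ly6Chi replicate 1 and 123 and 90.1 without replicate 3.

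Xirp1 (ENSMUSG00000079243, chromosome 9, 120013755 to 120023598, minus strand) was the most uneven of the 6 genes. It had 0.0621, 5.39 and 12.1 CPM in KO Ly6Clo replicates 1 to 3, 2.79, 5.76 and 9.93 CPM in WT Ly6Clo, against 0.0179, 0 and 0.0204 CPM in WT Ly6Chi. The first KO value is 4 reads, close to the level of Ly6Chi monocytes, while the other 5 Ly6Clo libraries held 152 to 869 reads. With 2 reads in all Ly6Chi libraries together, the ratio to Ly6Chi was 423 (95% interval 117 to 3500) for KO and 457 (126 to 3780) for WT Ly6Clo libraries, pooled by group. These intervals cover counting error only.

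Scnn1g (ENSMUSG00000000216, chromosome 7, 121734479 to 121768475, plus strand) had 4.28, 5.08 and 3.39 CPM in KO Ly6Clo and 12.5, 8.44 and 5.96 CPM in WT Ly6Clo libraries. No read was counted in any WT Ly6Chi library. Against a floor of 3 reads in each Ly6Chi library (a mean of 0.0592 CPM), the level was at least 71-fold higher in KO and at least 151-fold higher in WT Ly6Clo monocytes. Every KO value lay below every WT Ly6Clo value, the only member for which these groups did not overlap.

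Adrb1 (ENSMUSG00000035283, chromosome 19, 56722199 to 56733113, plus strand) was the most abundant, with 43.8, 58.3 and 44.8 CPM in KO Ly6Clo, 25.7, 42.8 and 45.1 CPM in WT Ly6Clo, against 0.215, 3.23 and 1.78 CPM in WT Ly6Chi libraries. KO and WT Ly6Clo values overlapped, and the Ly6Chi libraries were uneven, 12 reads in replicate 1 against 155 and 87 in replicates 2 and 3. Its mean was 28.1-fold (KO) and 21.7-fold (WT) the Ly6Chi mean, or 49.2-fold and 38.0-fold in the same order without WT Ly6Chi replicate 2.

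Setbp1 (ENSMUSG00000024548, chromosome 18, 78750380 to 79109391, minus strand) had 7.0, 11.3 and 3.84 CPM in KO Ly6Clo, 11.7, 14.1 and 6.61 CPM in WT Ly6Clo, against 0.215, 0.375 and 0.204 CPM in WT Ly6Chi libraries. Ccdc192 (ENSMUSG00000058925, chromosome 18, 57533780 to 57731065, plus strand) had 5.29, 4.59 and 7.35 CPM in KO Ly6Clo, 7.33, 8.72 and 6.68 CPM in WT Ly6Clo, against 0.0179, 0.209 and 0.123 CPM in WT Ly6Chi libraries. Both genes overlapped between KO and WT Ly6Clo and stood far above Ly6Chi in every Ly6Clo library. The means were 27.9-fold (KO) and 40.8-fold (WT) the Ly6Chi mean for Setbp1, and 49.4-fold (KO) and 65.1-fold (WT) for Ccdc192, where omitting WT Ly6Chi replicate 2 gave 81.8 and 108. Ccdc192 shares 39 exon bases with an antisense gene, AC102232.1, which had 77 reads over all libraries, and the sources used here do not state whether counting used strand. The other 5 genes share no exon base with another gene.

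**Figure D1:**
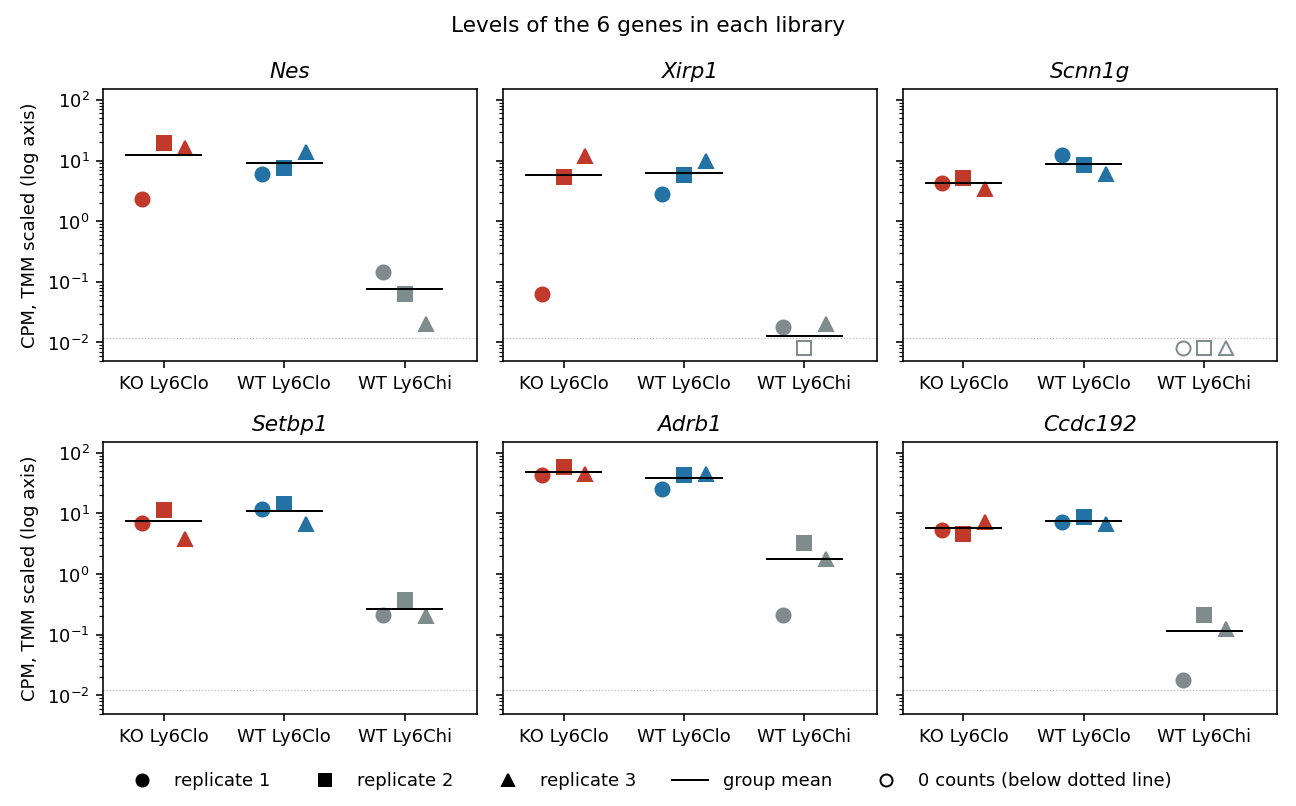
Level of each gene in each of the 9 libraries in CPM on a log axis, with KO Ly6Clo left, WT Ly6Clo in the middle and WT Ly6Chi right. Points are libraries by replicate number, lines are group means, and open points under the dotted line are libraries with 0 counts; Xirp1 in KO replicate 1 (0.0621 CPM) lies near the Ly6Chi level.

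By the values that chose them, the 6 genes stood at the head of the list of genes higher in WT Ly6Clo than in WT Ly6Chi monocytes. Ranked by fitted log2 fold change among 281 genes with at least 5 CPM in WT Ly6Clo, no overlap and an adjusted p under 0.05, Scnn1g, Xirp1, Nes and Ccdc192 held ranks 1 to 4 and Setbp1 and Adrb1 ranks 6 and 7. Fitted values were 8.71 for Xirp1, 6.89 for Nes, 6.02 for Ccdc192, 5.34 for Setbp1 and 4.45 for Adrb1. The value of Scnn1g, and so its rank above Xirp1, depends on the prior count. That value is replaced by the bound above. Cd300e, a myeloid surface receptor gene, stood between them at rank 5 (5.61), and Tgfbr3, a TGF-beta co-receptor gene (4.15), Tgm2, a transglutaminase gene (4.15), and Dusp16, a MAP kinase phosphatase gene (4.1), followed directly at ranks 8 to 10. Relative to WT Ly6Chi, edgeR called 3.51% of 18341 genes in WT Ly6Clo (1.88% higher, 1.62% lower) and 4.52% in KO Ly6Clo (2.06% higher, 2.46% lower). All 6 genes were called higher in both. In WT this follows from the choice, and in KO it follows in part, through the low level in the shared Ly6Chi libraries. Likewise all 6 lay above every Ly6Chi library without overlap, as did 13.6% of genes in WT and 11.3% in KO Ly6Clo libraries, while 14.7% and 11.7% lay below. Among 309 genes ranked the same way in KO Ly6Clo against WT Ly6Chi, Xirp1 held rank 5, Nes 9, Ccdc192 10, Adrb1 15 and Setbp1 17, while Scnn1g, with a mean of 4.25 CPM, fell below the 5 CPM minimum. The 2 rankings share the Ly6Chi libraries.

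The Ly6Chi libraries held a smaller share of the RNA of the 6 genes than of the usual marker genes of Ly6Clo monocytes. Mean levels in WT Ly6Chi were 0.0% for Scnn1g, 0.207% for Xirp1, 0.813% for Nes, 1.54% for Ccdc192, 2.45% for Setbp1 and 4.6% for Adrb1 of those in WT Ly6Clo. Across 10 Ly6Clo monocyte genes this share ran from 10.4% for Fcgr4, an Fc receptor gene, to 70.0% for Cx3cr1, the fractalkine receptor gene, with a median of 28.1%. Nr4a1 stood at 30.0%. The 6 genes were chosen for a low share, so the contrast is a description of the choice, and other genes at the head of the ranking share it: Cd300e stood at 2.05%, lower than Setbp1 and Adrb1, and Tgfbr3, Tgm2 and Dusp16 at 5.62%, 5.65% and 5.83%. In bulk libraries such as these, fewer cells of a type and less RNA per cell cannot be told apart. WT Ly6Chi replicate 1 held the smallest share of all 10 marker genes (4.9% to 35.6%) and of Adrb1 (0.567%) and Ccdc192 (0.236%), but the largest share of Nes (1.54%).

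**Figure D2:**
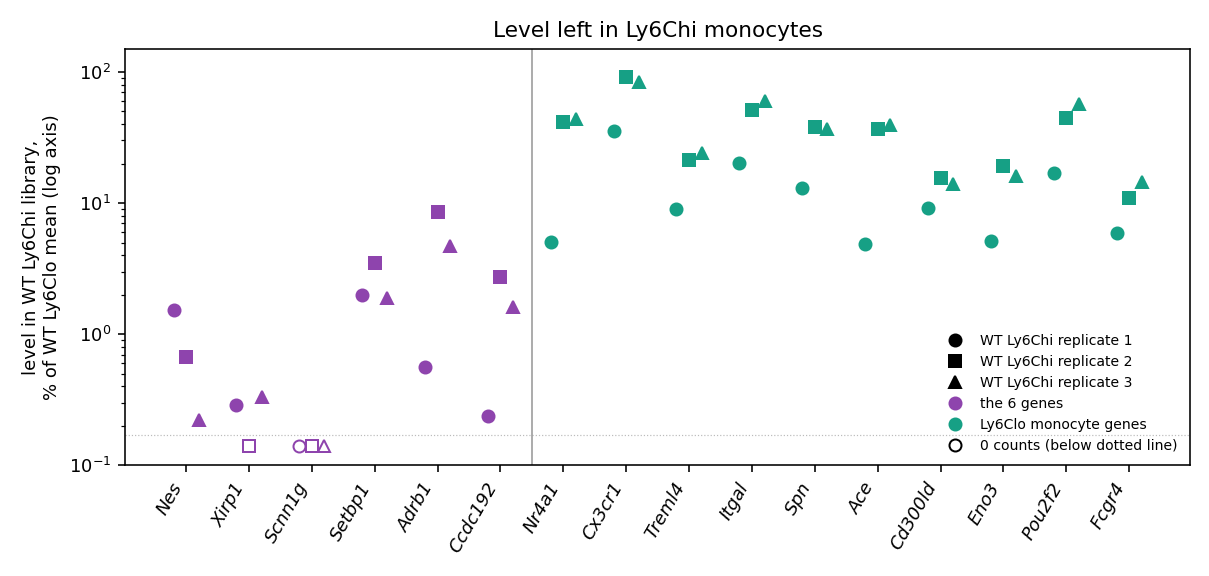
Level in each WT Ly6Chi library as a percent of the mean of the WT Ly6Clo libraries, on a log axis, for the 6 genes (left of the line) and 10 Ly6Clo monocyte genes (right). Points are WT Ly6Chi libraries and open points under the dotted line are libraries with 0 counts; averaged over libraries, the 6 genes lie between 0.0% and 4.6% and the marker genes between 10.4% and 70.0%.

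Per length, Adrb1 led in every group. In the deposited TPM it averaged 47.6 ± 6.84 in KO Ly6Clo, 34.3 ± 9.38 in WT Ly6Clo and 1.56 ± 1.34 TPM in WT Ly6Chi libraries (SD, n = 3). Ccdc192 came next, with 14.1 ± 3.88 TPM in KO and 17.2 ± 1.35 TPM in WT Ly6Clo libraries, and its libraries lay below all those of Adrb1 in both genotypes. Below it the order differed by genotype: Nes 6.48, Scnn1g 4.67, Xirp1 3.12 and Setbp1 2.43 TPM in KO, against Scnn1g 9.23, Nes 4.48, Setbp1 3.3 and Xirp1 3.05 TPM in WT Ly6Clo libraries. Among these 4 genes neighbours in the order overlapped between libraries, as Nes ranged over 1.2 to 9.68 TPM in KO Ly6Clo and Scnn1g over 6.36 to 13.3 TPM and Nes over 2.98 to 7.04 TPM in WT Ly6Clo. The median of the genes tested was 7.76 TPM in KO and 6.87 TPM in WT Ly6Clo, so all but Adrb1, Ccdc192 and, in WT, Scnn1g were expressed below the middle of the transcriptome.

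All 6 genes were expressed in KO Ly6Clo monocytes, Xirp1 in 2 of the 3 libraries, and a difference from WT Ly6Clo monocytes was not detectable beyond the spread of the libraries. In KO against WT Ly6Clo, 0 of the 6 passed an adjusted p under 0.05 by edgeR's quasi-likelihood test, with 0.0709% of 18341 genes called (0.0109% higher, 0.06% lower). DESeq2 and limma-voom also called 0 of the 6. At an unadjusted p under 0.05 edgeR held 1 of the 6, Scnn1g, against 6.16% of all genes. The log2 fold change of Scnn1g was -1.07 (SE 0.43, 95% interval -2.09 to -0.05, edgeR adjusted p 0.77). Over 17 other settings its adjusted p ran from 0.33 (DESeq2) to 1. Non-overlapping lower values in KO, as Scnn1g showed, were seen in 5.7% of genes, and higher ones in 5.22%. Scnn1g was lower in KO in each of the 3 pairs of libraries with the same number, by -1.54, -0.73 and -0.81 on the log2 scale. Any pairing gives that sign where the groups do not overlap. Setbp1 was also lower in each pair, by -0.74, -0.32 and -0.78. The share of all genes with the same sign in all 3 pairs was not computed. The other 4 genes had differences of both signs over the pairs.

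The other 5 intervals all spanned 0. Setbp1 had a log2 fold change of -0.55 (SE 0.48, interval -1.64 to 0.55) and Ccdc192 one of -0.40 (SE 0.59, interval -1.72 to 0.92). Adrb1 had 0.37 (SE 0.66, interval -1.12 to 1.86) and Nes 0.45 (SE 0.75, interval -1.25 to 2.14). These intervals leave room for changes of more than 2-fold in at least 1 direction. That of Xirp1, -2.78 to 2.63 around -0.08 (SE 1.2), allows changes of over 6-fold either way. Nes turned to -0.02 without KO replicate 2, and Xirp1 to 0.49 without KO replicate 1 and to 0.44 without WT Ly6Clo replicate 3. With the replicate number as a block Xirp1 stood at -0.93, and by limma-voom at -1.53.

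**Figure D3:**
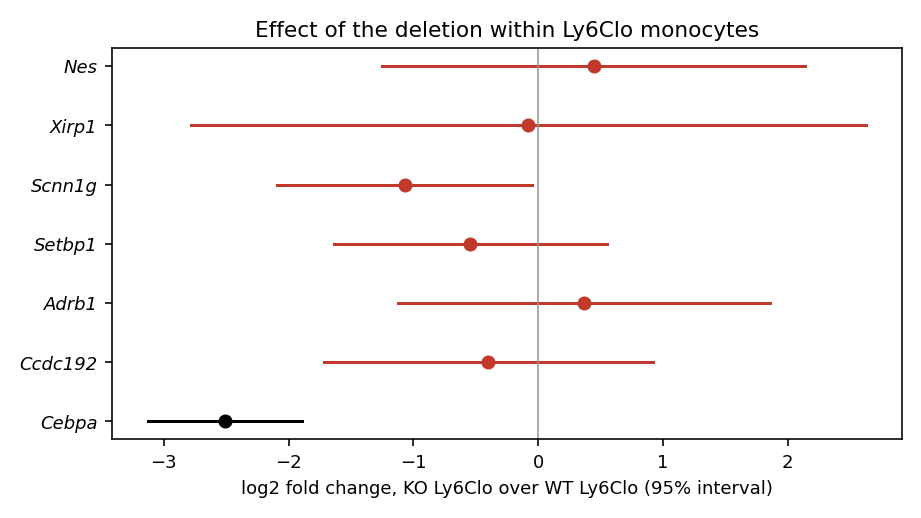
Log2 fold change of KO Ly6Clo over WT Ly6Clo for the 6 genes and for Cebpa, with 95% intervals from the edgeR fit over 9 libraries. Points are estimates and the vertical line marks no change; Cebpa lies at -2.51, and of the 6 genes Scnn1g (-2.09 to -0.05) has an interval that does not reach 0, with an adjusted p of 0.77.

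Library numbers in the deposited files fall into 2 runs, the first with replicates 1 and 2 of each Ly6Clo group and WT Ly6Chi replicate 1, the second with the remaining 4 libraries; what the runs stand for is not stated. Within the first run the log2 ratio of KO to WT means was -1.16 for Scnn1g, -0.49 for Setbp1, -0.70 for Ccdc192, 0.58 for Adrb1, 0.67 for Nes and -0.65 for Xirp1. In the second run, with 1 library of each genotype, it was -0.81 for Scnn1g, -0.78 for Setbp1, 0.14 for Ccdc192, -0.01 for Adrb1, 0.20 for Nes and 0.28 for Xirp1. Scnn1g and Setbp1 kept the lower side in both runs, which for Scnn1g follows from the lack of overlap. Ccdc192, Adrb1 and Xirp1 changed sides.

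Among replicates the genes fell into different orders. Nes and Xirp1 were lowest in replicate 1 of both genotypes. Their coefficients of variation were 71.6% and 103% in KO and 46.4% and 58.3% in WT Ly6Clo. Genes of like level had medians of 30.3% and 39.1% in KO and 27.2% and 31.0% in WT. Setbp1 also exceeded genes of like level, at 50.9% against a median of 36.1% in KO and 35.5% against 26.2% in WT. Scnn1g (36.7% against 27.6%) and Adrb1 (28.1% against 18.0%) did so in WT but not in KO, and Ccdc192 in neither. Scnn1g and Setbp1 were lowest in replicate 3 of both genotypes, at 3.39 and 3.84 CPM in KO and 5.96 and 6.61 CPM in WT. Ccdc192 was the steadiest in WT Ly6Clo, with a coefficient of variation of 13.7%, and Adrb1 in KO, with 16.6%.

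Immediate early genes, which respond within minutes to stimulation or handling of cells, also separated replicate 1 from the others. The sum of Fos, Fosb, Jun, Junb, Egr1, Ier2, Dusp1 and Atf3, a list chosen after values were seen, was 1610, 10800 and 10100 CPM in KO Ly6Clo, 2320, 22000 and 11800 CPM in WT Ly6Clo, against 1580, 15800 and 16200 CPM in WT Ly6Chi replicates 1 to 3. By edgeR, DESeq2 and limma-voom 0 of the 8 were called in any of the 3 comparisons, and by edgeR 0 had an unadjusted p under 0.05. Nes and Xirp1 moved with this sum within both Ly6Clo groups as far as replicate 1 was lowest, but their highest WT Ly6Clo values were in replicate 3 and that of the sum in replicate 2. In WT Ly6Chi replicates 2 and 3, where the sum was high, Xirp1 had 0 and 1 reads. The part of handling in the spread of Nes and Xirp1 was not tested. Csrnp1, a gene whose start lies 38.9 kb from that of Xirp1 (named after its values were seen), had 32.8, 199 and 97.7 CPM in KO Ly6Clo, 13.5, 209 and 93.1 CPM in WT Ly6Clo, against 13.9, 105 and 128 CPM in WT Ly6Chi libraries. It was thus low in all 3 replicates numbered 1 and, unlike Xirp1, well expressed in Ly6Chi monocytes.

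**Figure D4:**
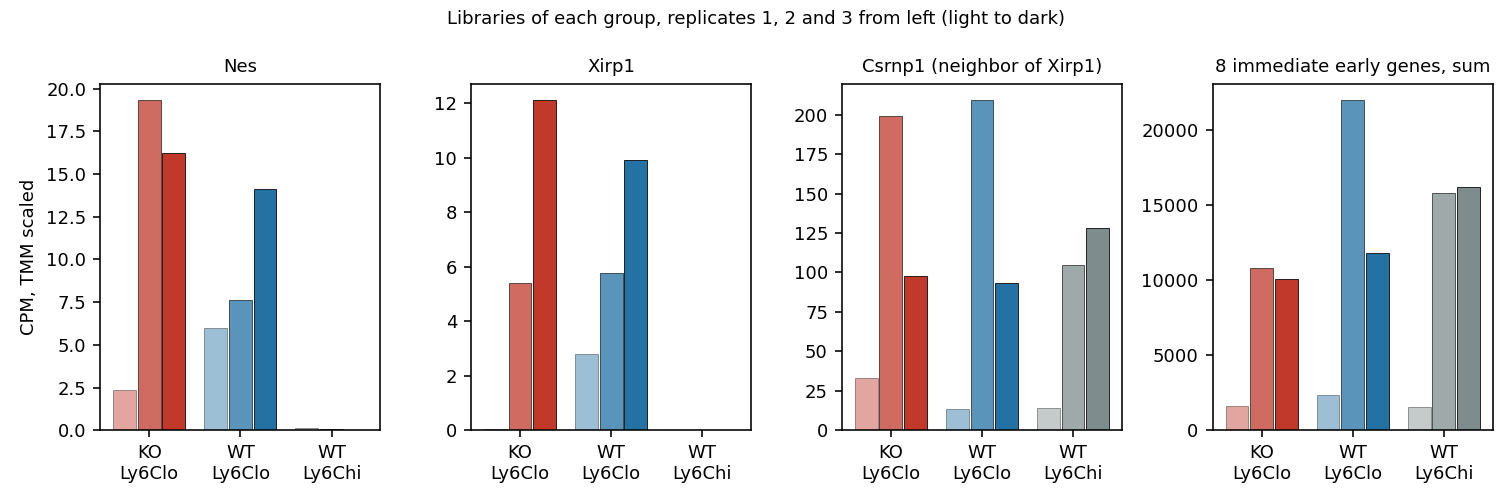
CPM of Nes, Xirp1, Csrnp1 and the sum of 8 immediate early genes in each library, with bars for replicates 1 to 3 from light to dark and groups KO Ly6Clo, WT Ly6Clo and WT Ly6Chi from left. Replicate 1 is the lowest bar of both Ly6Clo groups in all 4 panels, and the Ly6Chi bars are near 0 for Nes and Xirp1 only.

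Profiles over the 9 libraries were compared as centred log2(CPM + 1) by root mean square difference (RMS), over 12621 protein-coding genes; a small value means a like profile, and the added 1 flattens levels under 1 CPM. Scnn1g and Setbp1 were each other's nearest gene (RMS 0.32). Next to Scnn1g came Ccdc192 and Sh2d1b1 (0.40 each), and next to Setbp1 came Cyb561 (0.40) and Cd300ld (0.45). Adrb1 was nearest to Dusp16 (0.22), Cd274 (0.29), which encodes PD-L1, and Slamf9 (0.43). Ccdc192 was nearest to Cd300ld (0.23), Rcan1 (0.27), which encodes a calcineurin inhibitor, and Sh2d1b1 (0.29). Nes was nearest to Spred2 (0.45), Chst15 (0.46) and Cd81 (0.55), and Xirp1 to Plpp1 (0.55), Slc6a12 (0.57) and Cd22 (0.59), so these 2 had no partner as close. Between themselves Nes and Xirp1 differed by 0.60, and Xirp1 and Adrb1, the least alike pair, by 1.33. These values describe 9 libraries that share 3 groups and their depth. The step from Ly6Chi to Ly6Clo that chose the members enters every profile, so closeness between members follows in part from the choice.

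In no comparison did edgeR call more than 2 genes near the 6 loci, too few to judge their share against that of all genes. Of 34 genes that start within 100 kb of a member's start, 18 could be tested. Between KO and WT Ly6Clo each of edgeR, DESeq2 and limma-voom called 0, and 0 had an unadjusted edgeR p under 0.05. Relative to WT Ly6Chi edgeR called 2 in KO (11.1%, against 4.52% of all genes) and 1 in WT Ly6Clo (5.56%, against 3.51%), all higher. An unadjusted p under 0.05 was seen in 5 in KO (27.8%) and 4 in WT (22.2%), as in 16.9% and 18.2% of all genes in that order. DESeq2 called 2 in KO and 3 in WT, and limma-voom 1 in each. All neighbours called by edgeR lie near Xirp1, and DESeq2 also called Usp31, near Scnn1g, in WT Ly6Clo. Gm33858, an antisense gene named after its values were seen, had 78.5 ± 17.4 CPM in KO Ly6Clo, 77.5 ± 30.0 CPM in WT Ly6Clo and 13.9 ± 2.47 CPM in WT Ly6Chi libraries (log2 2.5, SE 0.34, adjusted p 0.0046 for KO and 2.48, SE 0.33, adjusted p 0.0063 for WT by edgeR). It was called under all 17 other settings in both comparisons. Xirp1 lies inside the annotated span of Cx3cr1 (119901616 to 120069879, minus strand), with which it shares no exon base, and Gm33858 (120068996 to 120070622, plus strand) overlaps the start of Cx3cr1. Reads of Gm33858 and Cx3cr1 in the stretch where they overlap cannot be told apart without strand. Cx3cr1 had 382 ± 80.4 CPM in KO Ly6Clo, 507 ± 112 CPM in WT Ly6Clo and 355 ± 152 CPM in WT Ly6Chi libraries, with adjusted p of 0.93 for KO and 0.48 for WT against Ly6Chi.

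Slc25a38, a mitochondrial glycine carrier gene whose start lies 86.8 kb from that of Xirp1, had 139 ± 28.4 CPM in KO Ly6Clo, 117 ± 23.3 CPM in WT Ly6Clo and 70.3 ± 14.4 CPM in WT Ly6Chi libraries. It was called in KO Ly6Clo against WT Ly6Chi (log2 0.99, SE 0.23, adjusted p 0.048 by edgeR) and kept that call under 4 of 17 other settings. Leaving out any 1 of the 9 libraries ended it, with adjusted p from 0.052 to 0.16. DESeq2 also called it higher in WT Ly6Clo than in WT Ly6Chi libraries. The nearest tested neighbours elsewhere did not pass edgeR's test: Rrnad1 near Nes (40.4 kb) averaged 27.5, 28.6 and 22.3 CPM, Usp31 near Scnn1g (27.2 kb) 16.9, 19.8 and 8.23 CPM, and Ccdc186 near Adrb1 38.7, 34.7 and 36.9 CPM in KO Ly6Clo, WT Ly6Clo and WT Ly6Chi libraries. Setbp1 and Ccdc192 had no neighbour that could be tested.

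Of the other genes of the sodium channel, Scnn1a, the alpha subunit, was well expressed and Scnn1b, the beta subunit, was nearly silent. Scnn1a averaged 62.5 ± 23.5 TPM in KO Ly6Clo, 129 ± 10.4 TPM in WT Ly6Clo and 21.9 ± 11.9 TPM in WT Ly6Chi libraries, well above the 4.67 TPM of Scnn1g in KO and its 9.23 TPM in WT Ly6Clo. Scnn1b had 28 reads over all libraries, 24 of them in KO replicate 1. By library, Scnn1a had 46.4, 86.2 and 102 CPM in KO Ly6Clo, 171, 200 and 153 CPM in WT Ly6Clo, against 11.4, 35.4 and 42.7 CPM in WT Ly6Chi, with no overlap between any of the groups.

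Scnn1a rose in WT Ly6Clo against WT Ly6Chi (log2 2.55, SE 0.48, adjusted p 0.023 by edgeR), a call that ended when WT Ly6Chi replicate 2 was left out (adjusted p 0.078) or any of WT Ly6Clo replicates 1, 2 and 3 (0.069, 0.074 and 0.064). Like Scnn1g, it had a lower estimate in KO than in WT Ly6Clo, log2 -1.16 (SE 0.45, adjusted p 0.74), without passing the test. Of 14 genes of the channel and its regulators, 8 could be tested. In WT Ly6Clo against WT Ly6Chi, 2 rose, Scnn1a and Tsc22d3, and 0 fell, and the median log2 fold change of the 8 was 0.78 against 0.00 over all genes. Tsc22d3, a glucocorticoid-induced gene whose product stimulates the channel, averaged 1130, 1660 and 884 CPM in KO Ly6Clo, WT Ly6Clo and WT Ly6Chi libraries (log2 0.91, SE 0.14, adjusted p 0.01 by edgeR for WT). It lost the call without WT Ly6Chi replicate 3 (0.051) or WT Ly6Clo replicate 1 (0.052). In both comparisons of KO libraries 0 of these 8 were called by edgeR. At an unadjusted edgeR p under 0.05 there were 2 (against WT Ly6Clo) and 3 (against WT Ly6Chi). The shares of all genes were 6.16% and 16.9% in that order. DESeq2 called Scnn1a in KO Ly6Clo against WT Ly6Chi (adjusted p 0.03) and 1 gene, Tsc22d3, lower in KO than in WT Ly6Clo; limma-voom called 0 in both.

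**Figure D5:**
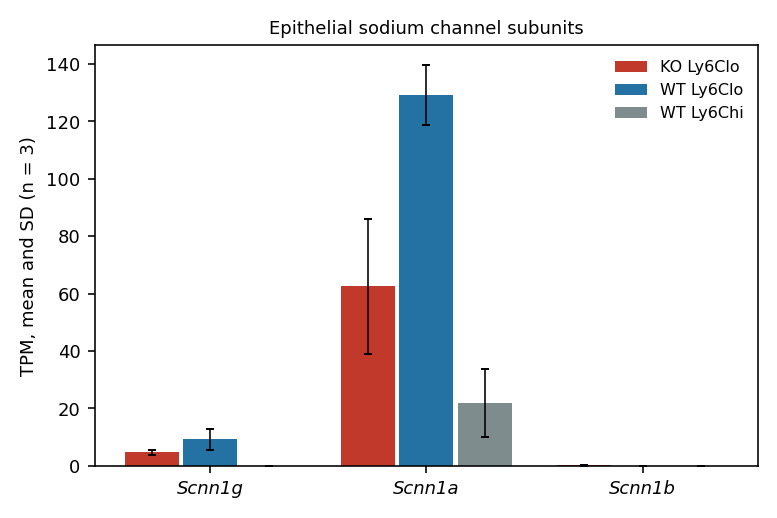
Deposited TPM of the 3 sodium channel subunits, as mean and SD of 3 libraries, with KO Ly6Clo, WT Ly6Clo and WT Ly6Chi bars from left in each gene. Scnn1a lies above Scnn1g in every group, and Scnn1b is near 0.

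Downstream of receptors such as Adrb1, all 24 cyclic AMP signalling genes could be tested. Relative to WT Ly6Chi, edgeR called 2 higher in KO Ly6Clo and 0 in WT Ly6Clo, and between KO and WT Ly6Clo it called 0; none was called lower. The counts at an unadjusted edgeR p under 0.05 were 4, 6 and 2 in that order, against 16.9%, 18.2% and 6.16% of all genes. The median log2 fold changes were 0.25, 0.43 and 0.00 against 0.04, 0.00 and 0.03 over all genes. In the same order DESeq2 called 4, 4 (3 higher, 1 lower) and 0, and limma-voom 2, 2 and 0. Adcy7, the main adenylyl cyclase of blood cells, averaged 854, 776 and 328 CPM and Pde7a, a cyclic AMP phosphodiesterase gene, 38.3, 38.0 and 19.7 CPM in KO Ly6Clo, WT Ly6Clo and WT Ly6Chi libraries. Their log2 fold changes in KO were 1.38 (SE 0.29, adjusted p 0.03) for Adcy7 and 0.96 (SE 0.22, adjusted p 0.045 by edgeR) for Pde7a. In WT Ly6Clo against WT Ly6Chi the values were close but missed the threshold, 1.24 (adjusted p 0.051) for Adcy7 and 0.95 (adjusted p 0.054) for Pde7a, and 7 of 17 other settings called Adcy7. The KO call of Adcy7 was kept under 10 of 17 settings and lost with the 2 groups alone (0.076) and without WT Ly6Chi replicate 2 or 3 (0.081 and 0.05), WT Ly6Clo replicate 1 or 3 (0.055 and 0.063) or KO replicate 2 or 3 (0.098 and 0.094). That of Pde7a was kept under 5 of 17 and lost without any 1 of the 9 libraries (0.069 to 0.17).

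Vim and Lmnb1, filament relatives of Nes, fell in both Ly6Clo groups. Of 14 intermediate filament genes 8 could be tested, and by edgeR these 2 fell in both KO and WT Ly6Clo against WT Ly6Chi, with 0 higher. DESeq2 and limma-voom called the same 2 lower in both, and DESeq2 called Nefh, a neurofilament gene with means of 2.23 CPM in KO Ly6Clo and 0.0129 CPM in WT Ly6Chi libraries, higher in KO (edgeR adjusted p 0.13). Vim, which encodes vimentin, the main intermediate filament of leukocytes and a known assembly partner of nestin, averaged 220 ± 64.3 CPM in KO Ly6Clo, 246 ± 22.1 CPM in WT Ly6Clo and 1110 ± 54.4 CPM in WT Ly6Chi libraries. Its log2 fold change against WT Ly6Chi was -2.34 (SE 0.23, adjusted p 0.00099) in KO and -2.18 (SE 0.22, adjusted p 0.002 by edgeR) in WT, called under all 17 other settings in both. Lmnb1, which encodes lamin B1 of the nuclear envelope, averaged 34.2, 21.0 and 88.2 CPM in KO Ly6Clo, WT Ly6Clo and WT Ly6Chi libraries. Its changes were -1.37 (SE 0.32, adjusted p 0.045) in KO and -2.07 (SE 0.32, adjusted p 0.012 by edgeR) in WT. The WT call of Lmnb1 was lost without WT Ly6Clo replicate 2 or 3 (0.051 and 0.055). Its KO call was kept under 6 of 17 settings and lost with the 2 groups alone (0.07), the replicate block (0.074), the term for runs (0.078), without any WT Ly6Chi library (0.11 to 0.13), any WT Ly6Clo library (0.053 to 0.086) or KO replicate 2 or 3 (0.062 and 0.11). In KO against WT Ly6Clo each of edgeR, DESeq2 and limma-voom called 0 of the 8. At an unadjusted edgeR p under 0.05 there was 1, against 6.16% of all genes. The medians of the 8 were 1.35 (KO against WT Ly6Clo), -1.24 (WT against Ly6Chi) and 0.21 (KO against Ly6Chi) and include genes under 1 CPM such as Gfap and Krt8.

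Of 14 actin adaptor and junction genes, the setting in which Xin proteins work, 13 could be tested. By edgeR 1 gene, Evl, an Ena/VASP protein gene of leukocytes, rose in WT Ly6Clo against WT Ly6Chi; limma-voom called Evl alone and DESeq2 called Evl and Nebl (edgeR adjusted p 0.19). It averaged 252, 307 and 127 CPM in KO Ly6Clo, WT Ly6Clo and WT Ly6Chi libraries, log2 1.27 (SE 0.27, adjusted p 0.04 by edgeR). That call was kept under 9 of 17 settings, and lost with the 2 groups alone (0.059) and without WT Ly6Chi replicate 2 or 3 (0.087 and 0.064), any WT Ly6Clo library (0.11 each) or KO replicate 2 or 3 (0.06 and 0.061). Xirp2, the other Xin repeat gene, had 17 reads over all libraries, 14 of them in KO replicate 1. KO libraries gave 0 calls of the 13 by edgeR. At an unadjusted edgeR p under 0.05 there were 4 (against Ly6Chi) and 0 (against WT Ly6Clo). The shares of all genes were 16.9% and 6.16% in that order. Against Ly6Chi DESeq2 called 4 there (3 higher, 1 lower) and limma-voom 1, against WT Ly6Clo both called 0. The medians were 0.05 (KO against WT Ly6Clo), -0.07 (WT against Ly6Chi) and 0.19 (KO against Ly6Chi).

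Of 11 partners and reported targets of SETBP1, 9 could be tested and edgeR and limma-voom called 0 in any comparison. At an unadjusted edgeR p under 0.05 there were 2 in KO Ly6Clo relative to Ly6Chi, against 16.9% of all genes. In the other comparisons there were 0. DESeq2 called 1, Kmt2a, in KO relative to Ly6Chi and 0 otherwise. Ppp2ca and Ppp2r1a, subunits of protein phosphatase 2A, averaged 268 and 224 CPM in KO Ly6Clo, 289 and 266 CPM in WT Ly6Clo, against 310 and 208 CPM in WT Ly6Chi libraries. The median log2 fold changes of the 9 were 0.24 (KO against WT Ly6Clo), 0.27 (WT against Ly6Chi) and 0.32 (KO against Ly6Chi).

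Markers of striated muscle and neural tissue, where Xirp1 and Nes are best known, were mostly absent. The 8 striated muscle markers summed to 1.3 to 3.79 CPM in KO Ly6Clo, 0.745 to 3.64 CPM in WT Ly6Clo and 0.772 to 2.0 CPM in WT Ly6Chi libraries, and Myod1 was at 0 in all. The 5 neural and glial markers summed to 2.06 to 2.52 CPM in KO Ly6Clo, 0.338 to 3.53 CPM in WT Ly6Clo and 1.36 to 2.0 CPM in WT Ly6Chi libraries. By edgeR, DESeq2 and limma-voom 0 genes of either list were called in any comparison, with 0 at an unadjusted edgeR p under 0.05, and neither sum was higher in all Ly6Clo than in all Ly6Chi libraries.

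Endothelial and stromal markers did move with the 6 genes. The 10 genes summed to 121 to 149 CPM in KO Ly6Clo, 76.7 to 83.0 CPM in WT Ly6Clo and 15.3 to 24.1 CPM in WT Ly6Chi libraries, and of the 5 tested edgeR and limma-voom called Vwf higher in each comparison with Ly6Chi, while DESeq2 called Vwf and Pdgfrb in each. In KO against WT Ly6Clo DESeq2 called Vwf higher, and edgeR (adjusted p 0.43) and limma-voom did not. The sums came almost whole from Vwf (43.1 to 125 CPM in Ly6Clo libraries) and Pdgfrb (at most 34.4 CPM), while Cdh5, a defining endothelial gene, had at most 0.248 CPM and Tek at most 0.369 CPM in any library. The 5 epithelial markers summed to 23.2 to 57.3 CPM in KO Ly6Clo, 4.93 to 17.1 CPM in WT Ly6Clo and 0.735 to 4.13 CPM in WT Ly6Chi libraries, most of it from Cdh1, while Epcam had at most 1.08 CPM. Of the 4 tested, edgeR and limma-voom called 0 and DESeq2 called Cdh1 in KO relative to Ly6Chi, with 1 at an unadjusted edgeR p under 0.05 in each comparison with Ly6Chi. The part of such cells in the levels of the 6 genes was not tested beyond these values.

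Of the markers of other blood cells, those of neutrophils separated the groups most. The 5 genes summed to 1.82, 8.34 and 29.8 CPM in KO Ly6Clo, 1.96, 1.03 and 4.11 CPM in WT Ly6Clo, against 283, 797 and 339 CPM in WT Ly6Chi libraries, with no overlap of either Ly6Clo group with Ly6Chi. Relative to WT Ly6Chi edgeR called 2 of the 5 lower in KO (S100a8 and Camp) and all 5 in WT Ly6Clo, DESeq2 called 3 and 4 and limma-voom 3 and 2 in that order. Between KO and WT Ly6Clo edgeR and limma-voom called 0, with 3 at an unadjusted edgeR p under 0.05, and DESeq2 called Ngp higher in KO. The markers were thus high where the 6 genes were near 0, and the part of such cells in the Ly6Chi levels was not tested.

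Other lists varied by library. The sum of 6 erythroid markers was 1.23, 7550 and 1420 CPM in KO Ly6Clo, 404, 3340 and 498 CPM in WT Ly6Clo, against 199, 226 and 133 CPM in WT Ly6Chi libraries. NK cell markers summed to 13.6 to 311, 53.4 to 229 and 17.7 to 69.0 CPM in the same order of groups. By edgeR and limma-voom 0 genes of both lists were called, with at most 1 at an unadjusted edgeR p under 0.05 in a list and comparison, and DESeq2 called Ncr1 in KO relative to Ly6Chi. Nes and Xirp1, like both sums, were lowest in replicate 1 of each genotype, and so were the B cell, T cell and platelet sums below. The part of any of these cells in the levels of Nes and Xirp1 was not tested. B cell markers summed to 24.2 to 75.8 CPM in KO Ly6Clo, 53.2 to 130 CPM in WT Ly6Clo and 22.7 to 49.7 CPM in WT Ly6Chi libraries, and red pulp macrophage markers to 129 to 198, 153 to 224 and 104 to 142 CPM in the same order of groups. T cell markers summed to 18.8 to 87.5, 32 to 104 and 54.2 to 88.1 CPM, dendritic cell markers to 28.5 to 103, 10.6 to 70.7 and 32.8 to 75.6 CPM and platelet markers to 2.78 to 25, 9.94 to 17.4 and 3.67 to 11.2 CPM in that order. In WT Ly6Clo libraries the B cell and red pulp macrophage sums lay above all those of WT Ly6Chi libraries. By edgeR and limma-voom 0 genes of these 5 lists were called, with at most 2 at an unadjusted edgeR p under 0.05 in a list and comparison. DESeq2 called Cd79b and Spic higher in WT Ly6Clo, and Zbtb46 higher and Cd3g lower in KO, relative to Ly6Chi.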

How the data were processed

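Libraries were made from 10 ng of RNA of sorted splenic monocytes (12 to 15 cycles of PCR) and read from both ends over 150 bases, per the labels' protocols. The deposited count column holds whole-number reads per gene, not normalized, and the CPM, FPKM and TPM columns were deposited by the authors beside it, per the file headers. The submitters' processing notes name STAR 2.5.1a, featureCounts 1.4.6-p5 and Salmon 0.8.2 and the build GRCm38, without roles. Counts were used for all tests, deposited TPM for levels between genes, and deposited CPM and FPKM in no result. Symbols came from GENCODE M21 for 99.38% of 55487 IDs.

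Counts were analysed with edgeR 4.0.16 in R 4.3.3: filterByExpr by group (minimum count 10, 18341 genes, all 6 members), TMM, 1 term per group over 9 libraries, and the quasi-likelihood test with Benjamini-Hochberg adjustment over all genes, called under 0.05. The procedure was tested on simulated data with changes far larger than those estimated for the members in KO against WT Ly6Clo. That test thus does not measure the power to detect such small changes. Depth was 48.1 to 173.7 in units of 1000000 counts. Floors (3 counts) and the intervals of pooled ratios to Ly6Chi cover counting error only. Intervals of log2 fold changes come from the edgeR fit and include spread among libraries. Members and lists were chosen with earlier results of these data known. Named are the members, Cebpa, up to 3 called list genes per comparison by adjusted p (or 2 of highest level), called or nearest tested neighbours within 100 kb, the 3 nearest profiles and the genes beside the members in the ranking. One list gene that this rule names is not reported here. Alternatives were RLE scaling, no filter, 1 CPM in 3 libraries, DESeq2 1.42.0, limma-voom (limma 3.58.1), the 2 groups compared alone, the replicate block, a term for library number runs and each library left out. Deviations of same-numbered KO and WT Ly6Clo libraries had correlations of 0.46, 0.35 and 0.12 for numbers 1, 2 and 3. WT Ly6Clo replicate 2 and KO replicate 3, of unlike number, reached 0.13, so pairing is not shown for number 3. The labels state no pairing.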

Additional observations from a re-analysis of the deposited data

How the results depend on the processing

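None of the 6 members was called in KO against WT Ly6Clo under any of the 17 alternatives. The direction of Scnn1g (-1.3 to -0.78), Setbp1 (-1.02 to -0.24), Adrb1 (0.14 to 0.51) and Ccdc192 (-0.62 to -0.27) was kept in all 17. Nes (-0.02 to 0.93 with 1 library left out) turned to -0.02 without KO replicate 2, and Xirp1 (-1.16 to 0.49 with 1 library left out, -1.53 by limma-voom) to 0.44 without WT Ly6Clo replicate 3 and 0.49 without KO replicate 1. The cause was not tested.

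Counts of called genes over the whole table moved more. In KO against WT Ly6Clo, where 13 genes were called, there were 54 without a filter, 27 with 1 CPM in 3 libraries, 277 by DESeq2 (52.7% of them higher, against 15.4%) and 0 with the 2 groups alone, with 859 genes at an unadjusted p under 0.05. Leaving out 1 library gave 2 to 21: omitting KO replicate 1 gave 21, omitting WT Ly6Clo replicate 1, 2 or 3 gave 8, 5 or 2, and omitting WT Ly6Chi replicate 3 gave 5. In WT Ly6Clo against WT Ly6Chi (643) DESeq2 called 1968, and leaving out 1 library gave 239 to 847, with 245, 269 and 254 on omitting WT Ly6Clo replicates 1, 2 and 3 and 342, 239 and 293 on omitting WT Ly6Chi replicates 1, 2 and 3. The share of higher calls was 42.8% with the 2 groups alone, against 53.7%. In KO Ly6Clo against WT Ly6Chi (829) DESeq2 called 1950, and leaving out 1 library gave 379 to 818, with 503 and 441 on omitting KO replicates 2 and 3 and 510, 379 and 438 on omitting WT Ly6Chi replicates 1, 2 and 3.

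The replicate block gave 13, 949 and 977 calls in the comparisons in that order. It ended the calls of Cebpa in KO against WT Ly6Clo and of Lmnb1 and Slc25a38 in KO Ly6Clo against WT Ly6Chi. The block called Adcy7 in WT Ly6Clo against WT Ly6Chi (adjusted p 0.021 by edgeR, and 0.0017 to 0.14 over all 17 settings). Correlations of WT Ly6Chi with same-numbered libraries 1, 2 and 3 were 0.35, 0.14 and 0.07 for WT Ly6Clo. For KO Ly6Clo they were 0.33, 0.24 and -0.01. Of unlike number, WT Ly6Chi replicate 3 reached 0.15 with WT Ly6Clo replicate 2 and 0.25 with KO replicate 2. Pairing with Ly6Chi libraries is thus not shown for number 2 or 3. Depth limits the Ly6Chi levels of Xirp1 and Scnn1g, at 2 and 0 reads.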
